A study of Danio rerio with 16 samples.

Results

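The primitive myeloid genes described here are 9 zebrafish genes that mark or direct the first macrophages and granulocytes of the embryo. They are spi1a, spi1b, irf8, cebpa, cebpb, lcp1, coro1a, csf1ra and mpx, taken as the rows of the count table that carry these symbols, and each symbol had 1 row among 32520 genes. Of the 9 genes, 5 (spi1b, irf8, cebpa, cebpb and lcp1) had enough reads to pass the filter on low counts, and 4 (spi1a, coro1a, csf1ra and mpx) had between 0 and 13 reads in any library. Those 4 are given as counts.

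RNA was sequenced from whole zebrafish embryos at 15 h post fertilization (hpf) in 16 libraries, 2 for each of 8 genotypes. The genotypes were wild type siblings (WT), the single mutants gfi1aa-/- (allele smu10), gfi1b-/- (smu11) and gfi1ab-/- (smu12), and gfi1 TM, which lacks all 3 genes. The double mutants were gfi1b/1ab DM, gfi1aa/1ab DM and gfi1aa/1b DM, named by the genes they lack. The smu11 and smu12 alleles were made with Cas9, and no transgene or treatment is named for any group. Mutant embryos were picked by genotyping. The single mutants came from crosses of heterozygotes, gfi1aa/1b DM and gfi1aa/1ab DM from parents already homozygous for the second gene, and gfi1 TM from parents homozygous for gfi1aa and gfi1b. Parents of gfi1aa/1b DM, gfi1aa/1ab DM, gfi1 TM and the single mutants thus differed in genotype. Comparisons and interactions that set these mutants against each other differ in the parents as well as in the gene named. These cannot be told apart. The cross of gfi1b/1ab DM, the number of embryos and the clutch of each library are not given in the sources used here, so genotype and clutch cannot be told apart. Nothing says that the 2 libraries of a genotype came from separate clutches, and p-values then measure only the spread between these libraries, which may be technical.

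Gfi1 proteins are zinc finger repressors of transcription that act in blood cells together with the histone demethylase Lsd1. In zebrafish, primitive myeloid cells arise in the anterior lateral plate mesoderm during somite stages and then spread over the yolk, while primitive erythrocytes form in the posterior mesoderm. The ETS factor Pu.1, made from spi1b, starts the myeloid program, Irf8 and the C/EBP factors act further on in macrophages and granulocytes, and L-plastin, Coronin 1A, the Csf1 receptor and myeloperoxidase are products of the cells themselves. In mice, Gfi1 and Pu.1 are known to oppose each other in myeloid progenitors.

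Each library held 15657371 to 22524501 reads on genes (median 19442820). The mutant alleles leave transcripts, and gfi1aa itself was measured at a mean of 8.95 CPM (reads scaled to an equal library total) with gfi1aa lost and 10.8 CPM in the other 8 libraries, so its level does not check the labels. The erythroid factor gene gata1a was at 3.43 to 6.55 CPM in the gfi1aa mutant libraries and at 12.3 to 17.4 CPM in the others, with no overlap (0.226% of all tested genes had all 8 libraries lower). The study had reported gata1a as decreased in these same samples, so its level is no independent check of the labels. Replicates differed least in gfi1aa-/- (SD of the log2 difference over genes 0.347) and most in gfi1 TM (0.602). In whole embryos, fewer cells of a type and less RNA per cell cannot be told apart. CPM values are not corrected for gene length, and levels are compared between libraries and not between genes.

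The loss of each gfi1 gene was tested over 4 backgrounds, as the average of the 4 genotypes that carry the mutation less the average of the 4 that do not. Calls are genes with a Benjamini-Hochberg adjusted p under 0.05 in edgeR's quasi-likelihood test over 19903 genes. With loss of gfi1ab, 2 of the 5 tested genes were lower and 0 higher, beside 23.9% of all tested genes called (12.7% higher and 11.2% lower). With loss of gfi1aa, 2 were higher and 1 lower, beside 14.6% of all tested genes (7.08% higher and 7.47% lower). With loss of gfi1b, 1 was lower and 0 higher, beside 9.74% of all tested genes (4.71% higher and 5.03% lower). Against WT, 1 of the 5 genes was called in each mutant but gfi1b/1ab DM, which had 0, beside 9.46% to 22.9% of all tested genes. The median log2 fold change of the 5 genes was -0.08, -0.07 and -0.07 in this order, against medians of 0.0061, 0.0022 and 0.0078 over all tested genes.

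**Figure D1:**
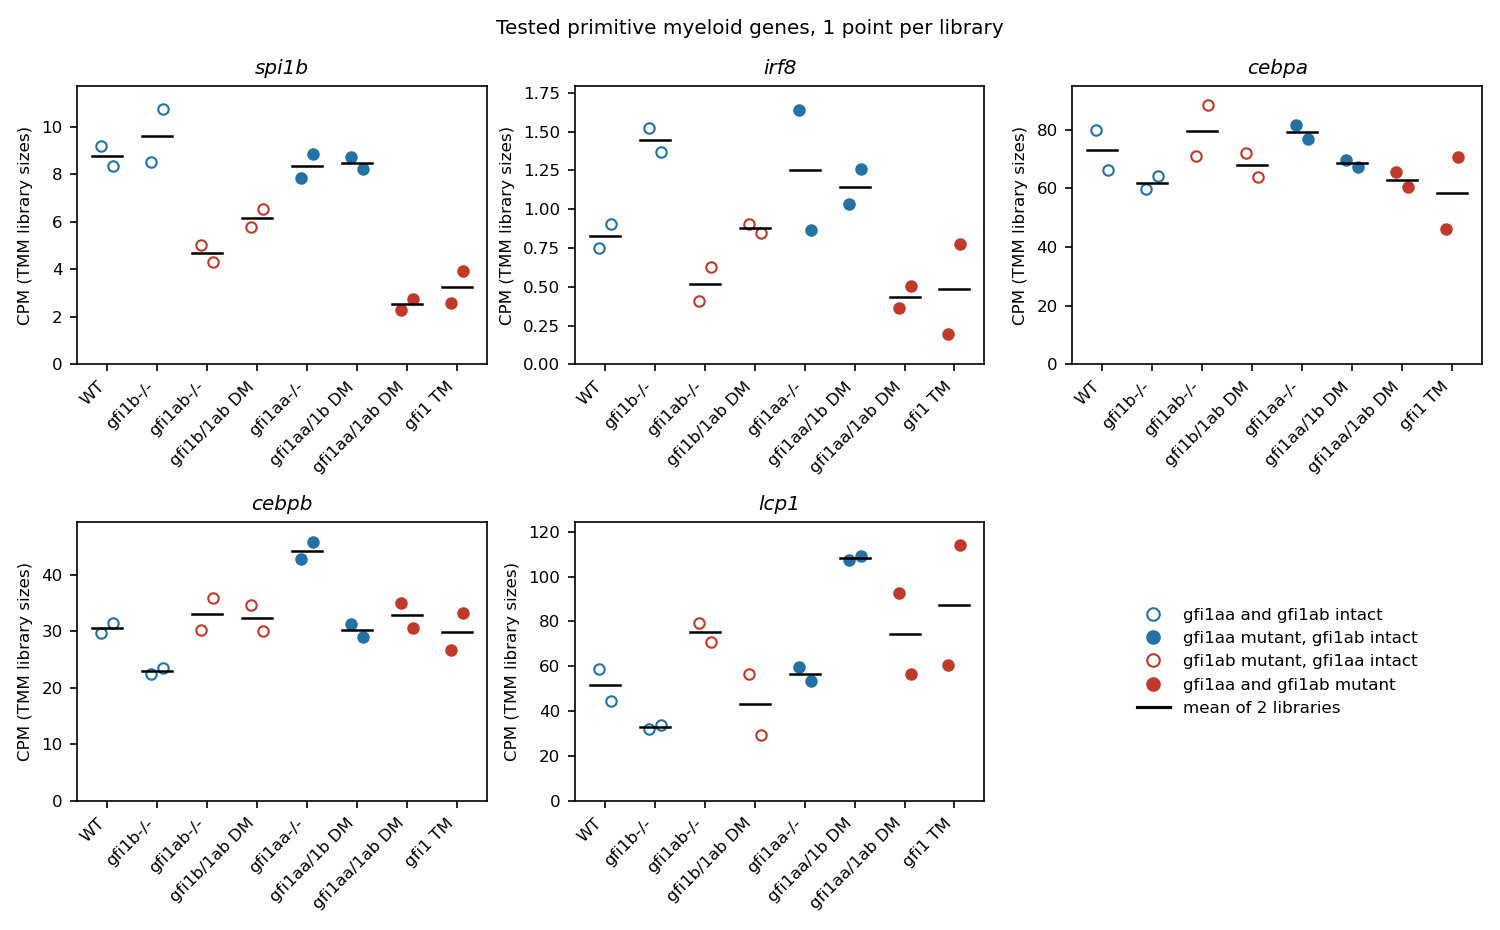
Level of the 5 tested primitive myeloid genes in CPM (vertical axes, starting at 0) by genotype (horizontal axes), with 1 point per library and a black line at the mean of 2 libraries. Red marks gfi1ab mutants and filled points mark gfi1aa mutants. All 8 spi1b points of gfi1ab mutants lie below the other 8, and the lcp1 points of gfi1aa/1b DM lie at 107 and 109 CPM.

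spi1b (ENSDARG00000000767), the gene of the myeloid master factor Pu.1, was lower in every library that lacked gfi1ab. It had 184 and 175 reads in WT, 156 and 220 in gfi1b-/-, 153 and 204 in gfi1aa-/-, and 135 and 157 in gfi1aa/1b DM. In the gfi1ab mutants it had 53 and 71 reads in gfi1 TM, 38 and 49 in gfi1aa/1ab DM, 86 and 96 in gfi1ab-/-, and 115 and 131 in gfi1b/1ab DM. In CPM, the 8 gfi1ab mutant libraries lay between 2.29 and 6.51 with a median of 4.13, and the other 8 between 7.82 and 10.7 with a median of 8.61. The groups did not overlap, which held in this direction for 0.467% of all tested genes. The mean was 4.15 ± 1.56 CPM (SD, n = 8) against 8.79 ± 0.88 CPM (SD, n = 8), a log2 fold change of -1.17 (SE 0.10, adjusted p = 3.83e-06), or 2.24-fold lower.

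The order of the genotype means of spi1b showed that the loss of gfi1ab came with the lowest levels where gfi1aa was lost as well. The 4 genotypes with intact gfi1ab followed each other from gfi1b-/- (9.61 ± 1.58 CPM, SD, n = 2) over WT (8.76 ± 0.61) and gfi1aa/1b DM (8.47 ± 0.35) to gfi1aa-/- (8.33 ± 0.71), and the libraries of neighbours in this order overlapped. Below them came gfi1b/1ab DM (6.16 ± 0.51) and gfi1ab-/- (4.67 ± 0.50), each with both libraries above those of the next genotype, and then gfi1 TM (3.26 ± 0.97) and gfi1aa/1ab DM (2.52 ± 0.32), which overlapped. The share of all tested genes with such steps between genotypes was not counted. Of the 7 mutants against WT, 3 were lower for spi1b. The log2 fold change was -0.91 in gfi1ab-/- (SE 0.19, adjusted p = 0.0065), where 10.3% of all tested genes were called. It was -1.79 in gfi1aa/1ab DM (SE 0.21, adjusted p = 6.86e-05, 22.9% called) and -1.44 in gfi1 TM (SE 0.20, adjusted p = 0.00048, 13.1% called). The value for gfi1b/1ab DM was -0.51 (SE 0.19, adjusted p = 0.10, 10.6% called), and those of gfi1aa-/-, gfi1b-/- and gfi1aa/1b DM lay between -0.07 and 0.14.

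Within each background, loss of gfi1ab changed spi1b by -0.91 on the log2 scale with no other mutation, by -1.72 in gfi1aa-/- (adjusted p = 0.00014, 23.6% of all tested genes called) and by -1.39 in gfi1aa/1b DM (adjusted p = 0.0020, 4.87% called). In gfi1b-/- the value was -0.64 (adjusted p = 0.072, 3.65% called). On loss of gfi1aa the value of spi1b was -0.07 against WT (95% interval -0.46 to 0.31) and -0.19 in gfi1b-/- (-0.58 to 0.20), and neither passed. In the gfi1ab mutants it changed spi1b by -0.88 (-1.35 to -0.41, adjusted p = 0.017, 14.1% called) in gfi1ab-/- and by -0.93 (-1.36 to -0.49, adjusted p = 0.032, 1.96% called) in gfi1b/1ab DM. The interaction of gfi1aa and gfi1ab, the change with loss of gfi1aa in gfi1ab mutants less that in the others, was -0.77 (SE 0.20, adjusted p = 0.026), where 8.6% of all tested genes were called. Averaged over 4 backgrounds, spi1b was lower with loss of gfi1aa by -0.52 (SE 0.10, adjusted p = 0.0034), with 2.29 to 8.83 CPM in the mutants and 4.32 to 10.7 CPM in the others, which overlapped. With loss of gfi1b it was 0.23 (SE 0.10, adjusted p = 0.17).

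The gfi1ab call of spi1b held when any 1 library was left out (log2 fold change -1.25 to -1.10) and in a model with only 2 sides and no genotype means (-1.08, adjusted p = 0.0044). The averaged gfi1aa call was lost in that 2-sided model (-0.37, adjusted p = 0.58), and the call of gfi1ab-/- against WT was lost without gfi1ab-/- replicate 2 (-0.80, adjusted p = 0.067). The change with loss of gfi1aa in gfi1ab-/- was lost without gfi1ab-/- replicate 1 and without either gfi1aa/1ab DM library (adjusted p up to 0.11). That in gfi1b/1ab DM was lost without either library of gfi1b/1ab DM or gfi1aa/1b DM and without gfi1 TM replicate 1 (adjusted p up to 0.19). The interaction was lost in 8 of 16 fits without 1 library (-0.94 to -0.63, adjusted p up to 0.063), which left out either gfi1aa/1b DM library, WT or gfi1aa-/- or gfi1b/1ab DM replicate 2, or replicate 1 of gfi1b-/-, gfi1ab-/- or gfi1aa/1ab DM. A fit of only the compared libraries did not call the gfi1 TM values against WT (adjusted p = 0.070), gfi1aa/1b DM (0.12) or gfi1b/1ab DM (0.42). Of all genes, those fits called 79 higher and 71 lower of 18732 against WT. They called 29 and 18 of 18317 against gfi1aa/1b DM and 11 and 3 of 18512 against gfi1b/1ab DM. Muscle genes that rise with stage and epidermis genes also moved with gfi1ab. Of 12 tested muscle genes 7 were higher with loss of gfi1ab averaged over 4 backgrounds, beside 12.7% of all tested genes higher. By background, 1 muscle gene was called higher against WT (10.3% of all tested genes called) and 0 in gfi1b-/- (3.65%). In gfi1aa-/- 6 were higher (23.6%) and in gfi1aa/1b DM 4 (4.87%). The sum of that list was 1044 to 1388 CPM in the mutants and 897 to 1163 CPM in the others. Of 6 epidermis genes 4 were higher, with sums of 15202 to 20209 CPM against 13177 to 18266 CPM. Their part in the spi1b result was not tested.

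**Figure D2:**
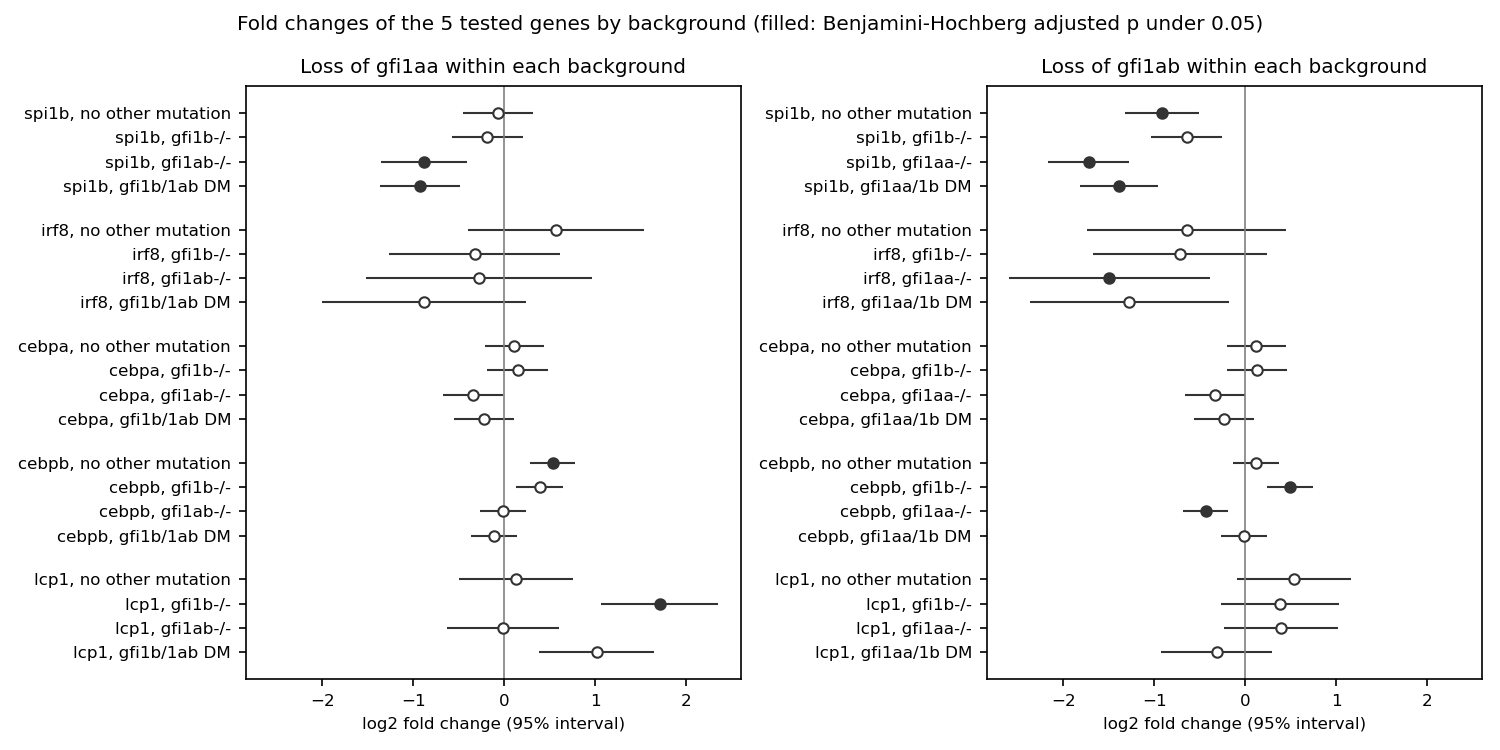
Log2 fold change (horizontal axes, bars are 95% intervals) of the 5 tested genes on loss of gfi1aa (left) and loss of gfi1ab (right), 1 row for each gene and background, with filled points for an adjusted p under 0.05. For spi1b, loss of gfi1aa gave -0.07 and -0.19 with gfi1ab intact and -0.88 and -0.93 in gfi1ab mutants, and all 4 points for loss of gfi1ab lie left of 0.

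irf8 (ENSDARG00000056407), whose product drives macrophage over neutrophil fate in zebrafish, had 4 to 32 reads per library. It had 15 and 19 reads in WT, 28 and 28 in gfi1b-/-, 32 and 20 in gfi1aa-/-, and 16 and 24 in gfi1aa/1b DM. In the gfi1ab mutants it had 4 and 14 reads in gfi1 TM, 6 and 9 in gfi1aa/1ab DM, 7 and 14 in gfi1ab-/-, and 18 and 17 in gfi1b/1ab DM. The gfi1ab mutants were lower as a group, and the groups overlapped through gfi1b/1ab DM and gfi1 TM. The 8 gfi1ab mutant libraries held 89 reads and the others 182, a ratio per depth of 0.504 with a 95% interval of 0.387 to 0.653 (exact binomial, for counting error only).

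In CPM, irf8 was at 0.579 ± 0.254 (SD, n = 8) with loss of gfi1ab and at 1.17 ± 0.33 in the others. The log2 fold change was -1.03 (SE 0.25, adjusted p = 0.0086), or 2.04-fold lower, and the call held without any 1 library (-1.34 to -0.86). Within backgrounds the value was -0.64 without another mutation (adjusted p = 0.50), -0.72 in gfi1b-/- (adjusted p = 0.48), -1.49 in gfi1aa-/- (adjusted p = 0.049) and -1.27 in gfi1aa/1b DM (adjusted p = 0.17). The call in gfi1aa-/- was lost in DESeq2 (adjusted p = 0.11) and in 13 of 16 fits without 1 library (-1.92 to -1.01, adjusted p up to 0.33), all but those without gfi1aa-/- replicate 2 or either gfi1 TM library. Loss of gfi1aa gave -0.23 (SE 0.25) and loss of gfi1b gave 0.38 (SE 0.25) over 4 backgrounds, and neither passed (adjusted p = 0.60 and 0.38). None of the 7 mutants passed against WT for irf8 (adjusted p 0.25 to 0.94, log2 fold changes -0.92 to 0.80). In gfi1 TM the 2 libraries set the value, which was -2.06 against WT without replicate 2 (adjusted p = 0.039) and -0.09 without replicate 1.

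spi1a (ENSDARG00000067797), the second zebrafish gene of the Pu.1 factor, was near the limit of detection. It had 1 and 3 reads in WT, 2 and 0 in gfi1b-/-, 3 and 1 in gfi1b/1ab DM, 2 and 4 in gfi1ab-/-, 4 and 2 in gfi1aa-/-, 3 and 1 in gfi1 TM, 1 and 0 in gfi1aa/1b DM, and 3 and 1 in gfi1aa/1ab DM. The 31 reads in all left no ordering of genotypes, since the libraries of all neighbours overlapped. On loss of gfi1ab the ratio of reads per depth was 1.43 with an interval of 0.661 to 3.17, and that of spi1b was 0.476 with an interval of 0.433 to 0.523. These intervals cover counting error only and not the spread between libraries. For spi1a, 0 of 19 comparisons passed in edgeR without the low-count filter, and 0 had an unadjusted p under 0.05.

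cebpa (ENSDARG00000036074), which in vertebrates drives granulocyte differentiation and is also used in liver and fat cells, had 953 to 1964 reads per library and passed in 0 of 19 comparisons. It was at 80.0 and 66.4 CPM in WT, 59.7 and 64.1 in gfi1b-/-, 72.1 and 63.8 in gfi1b/1ab DM, and 70.9 and 88.3 in gfi1ab-/-. With gfi1aa lost it was at 81.7 and 76.7 CPM in gfi1aa-/-, 46.3 and 70.6 in gfi1 TM, 69.8 and 67.4 in gfi1aa/1b DM, and 65.6 and 60.4 in gfi1aa/1ab DM. The libraries of neighbours in the order of genotype means overlapped in every case. The log2 fold change of cebpa was -0.07 with loss of gfi1aa (95% interval -0.24 to 0.09), -0.20 with loss of gfi1b (-0.36 to -0.03, adjusted p = 0.13) and -0.08 with loss of gfi1ab (-0.24 to 0.09). Against WT the 7 mutants lay between -0.33 and 0.12, with adjusted p-values of 0.18 to 0.77. The 4 comparisons with an unadjusted p under 0.05 had adjusted p-values of 0.11 to 0.16. Without the low-count filter 5 of the 19 comparisons of cebpa passed, among them loss of gfi1b (-0.20, adjusted p = 0.0030) and gfi1 TM against WT (-0.34, adjusted p = 0.013). With the filter these fold changes were nearly the same (-0.20, adjusted p = 0.13, and -0.33, adjusted p = 0.18). The degrees of freedom of the fits are given with the processing. Without gfi1 TM replicate 2, 8 of the 19 passed, among them loss of gfi1b (-0.28, adjusted p = 0.0034) and gfi1 TM against WT (-0.66, adjusted p = 0.0029), a value that was -0.05 without gfi1 TM replicate 1.

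cebpb (ENSDARG00000042725), a related factor that acts in macrophages and in emergency granulopoiesis in mice, was highest in gfi1aa-/- and lowest in gfi1b-/-. It was at 42.7 and 45.8 CPM in gfi1aa-/- and at 22.4 and 23.6 CPM in gfi1b-/-, and the other 12 libraries lay between 26.6 and 36.0 CPM. In WT it was at 29.7 and 31.5 CPM, in gfi1ab-/- at 30.2 and 36.0, in gfi1b/1ab DM at 34.6 and 30.1, in gfi1aa/1b DM at 31.3 and 29.1, in gfi1aa/1ab DM at 35.0 and 30.7, and in gfi1 TM at 26.6 and 33.2. Both gfi1aa-/- libraries thus stood above and both gfi1b-/- libraries below those of every other genotype. These genotypes were named from the order of the values. The share of all tested genes with a genotype apart at either end was not counted. Against WT, cebpb was higher in gfi1aa-/- by 0.53 on the log2 scale (SE 0.12, adjusted p = 0.0068), where 12.1% of all tested genes were called, and lower in gfi1b-/- by -0.41 (SE 0.12, adjusted p = 0.044), where 9.46% were called.

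No mutant that lacks more than 1 gfi1 gene passed against WT for cebpb. These 4 mutants lay between -0.03 and 0.10 against WT with adjusted p-values of 0.58 to 0.94, and gfi1ab-/- was at 0.12 (adjusted p = 0.60). Loss of gfi1ab lowered cebpb in gfi1aa-/- by -0.43 (SE 0.12, adjusted p = 0.016) and raised it in gfi1b-/- by 0.49 (SE 0.12, adjusted p = 0.034). The former was lost without either gfi1aa-/- library or gfi1aa/1ab DM replicate 2 (adjusted p up to 0.14), and the latter without either library of gfi1b-/-, gfi1b/1ab DM, gfi1aa-/- or gfi1aa/1b DM (adjusted p up to 0.28). The interaction of gfi1aa and gfi1ab was -0.53 (SE 0.12, adjusted p = 0.013) and held without any 1 library (-0.61 to -0.45). The interaction of gfi1b and gfi1ab was 0.40 (SE 0.12, adjusted p = 0.084, 3.29% called), and that of gfi1aa and gfi1b was -0.12 (SE 0.12, adjusted p = 0.63).

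Averaged over 4 backgrounds, cebpb was higher with loss of gfi1aa (0.20, SE 0.06, adjusted p = 0.036) and lower with loss of gfi1b (-0.28, SE 0.06, adjusted p = 0.0078). The gfi1aa mutants lay between 26.6 and 45.8 CPM and the others between 22.4 and 36.0 CPM, and the gfi1b mutants between 22.4 and 34.6 CPM and the others between 29.7 and 45.8 CPM, so that both pairs of groups overlapped. The averaged gfi1aa call was lost in 12 of 16 fits without 1 library (0.16 to 0.24, adjusted p up to 0.10), all but those without gfi1ab-/- or gfi1aa/1ab DM replicate 2 or gfi1b/1ab DM or gfi1 TM replicate 1, and with scaling by library totals alone (0.18, adjusted p = 0.062), and both averaged calls were lost in the 2-sided model (adjusted p = 0.42 and 0.27). The single mutant calls were lost without WT replicate 1 (adjusted p = 0.060) or gfi1aa-/- replicate 2 (adjusted p = 0.073) for gfi1aa-/-. For gfi1b-/- the call was lost in DESeq2 (adjusted p = 0.053) and without either library of WT, gfi1b-/-, gfi1b/1ab DM, gfi1aa-/- or gfi1aa/1b DM (adjusted p up to 0.23). Genes of the yolk syncytial layer also moved with gfi1b. Of 7 tested 6 were lower averaged over 4 backgrounds, beside 5.03% of all tested genes lower. Set against WT, 2 were lower in gfi1b-/- (9.46% of all tested genes called) and 0 in gfi1aa/1b DM (9.69%) and gfi1 TM (13.1%). In gfi1b/1ab DM 0 were lower and rbp4 was higher (10.6%). The list summed to 4288 to 8311 CPM in gfi1b mutants and 6376 to 10448 CPM in the others, and its part in the values of cebpa and cebpb was not tested.

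lcp1 (ENSDARG00000023188) encodes L-plastin, an actin-bundling protein found in all leukocytes. It had 589 to 2085 reads per library, beside 1 to 7 for the leukocyte gene coro1a. Which cells of the whole embryo gave the lcp1 reads was not tested. Averaged over 4 backgrounds lcp1 was higher with loss of gfi1aa, but within single backgrounds this passed in gfi1b-/- alone. Of the 8 genotypes, lcp1 was lowest in gfi1b-/- (mean 33.0 CPM, and 51.7 CPM in WT). It was at 59.0 and 44.4 CPM in WT, 32.1 and 33.9 in gfi1b-/-, 56.7 and 29.3 in gfi1b/1ab DM, and 79.1 and 71.0 in gfi1ab-/-. With gfi1aa lost it was at 59.7 and 53.5 CPM in gfi1aa-/-, 60.5 and 114 in gfi1 TM, 107 and 109 in gfi1aa/1b DM, and 92.5 and 56.6 in gfi1aa/1ab DM. The gfi1aa mutants lay between 53.5 and 114 CPM with a median of 76.5 and the others between 29.3 and 79.1 CPM with a median of 50.6, so the groups overlapped. The log2 fold change with loss of gfi1aa was 0.71 (SE 0.15, adjusted p = 0.0053), or 1.64-fold higher. It held without any 1 library (0.58 to 0.85) and was lost in the 2-sided model (0.69, adjusted p = 0.15).

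Within backgrounds, loss of gfi1aa changed lcp1 by 1.71 in gfi1b-/- (SE 0.30, adjusted p = 0.0047), where 4.67% of all tested genes were called. The value was 1.02 in gfi1b/1ab DM (SE 0.29, adjusted p = 0.10), 0.13 against WT (95% interval -0.49 to 0.76) and -0.01 in gfi1ab-/- (-0.63 to 0.61). The interaction of gfi1aa and gfi1b was 1.30 (SE 0.29, adjusted p = 0.025), where 4.02% of all tested genes were called, and it was lost in 8 of 16 fits without 1 library (1.04 to 1.58, adjusted p up to 0.071), which left out either gfi1b-/- or gfi1aa/1b DM library, WT or gfi1ab-/- replicate 1, or gfi1aa-/- or gfi1aa/1ab DM replicate 2. The change in gfi1b-/- was 1.68 without gfi1b-/- replicate 1 (adjusted p = 0.066) and 1.76 without replicate 2 (adjusted p = 0.061). Of the 7 mutants against WT, gfi1aa/1b DM alone passed for lcp1 (1.07, SE 0.29, adjusted p = 0.032, where 9.69% were called), and this call was lost in DESeq2 (adjusted p = 0.064) and without either library of WT or gfi1aa/1b DM (adjusted p up to 0.21). Loss of gfi1b and loss of gfi1ab gave -0.07 (SE 0.15, adjusted p = 0.82) and 0.25 (SE 0.15, adjusted p = 0.24) over 4 backgrounds. The gfi1 TM libraries differed most, and the change against gfi1b/1ab DM was 1.40 without replicate 1 (adjusted p = 0.011) and 0.49 without replicate 2 (adjusted p = 0.31).

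**Figure D3:**
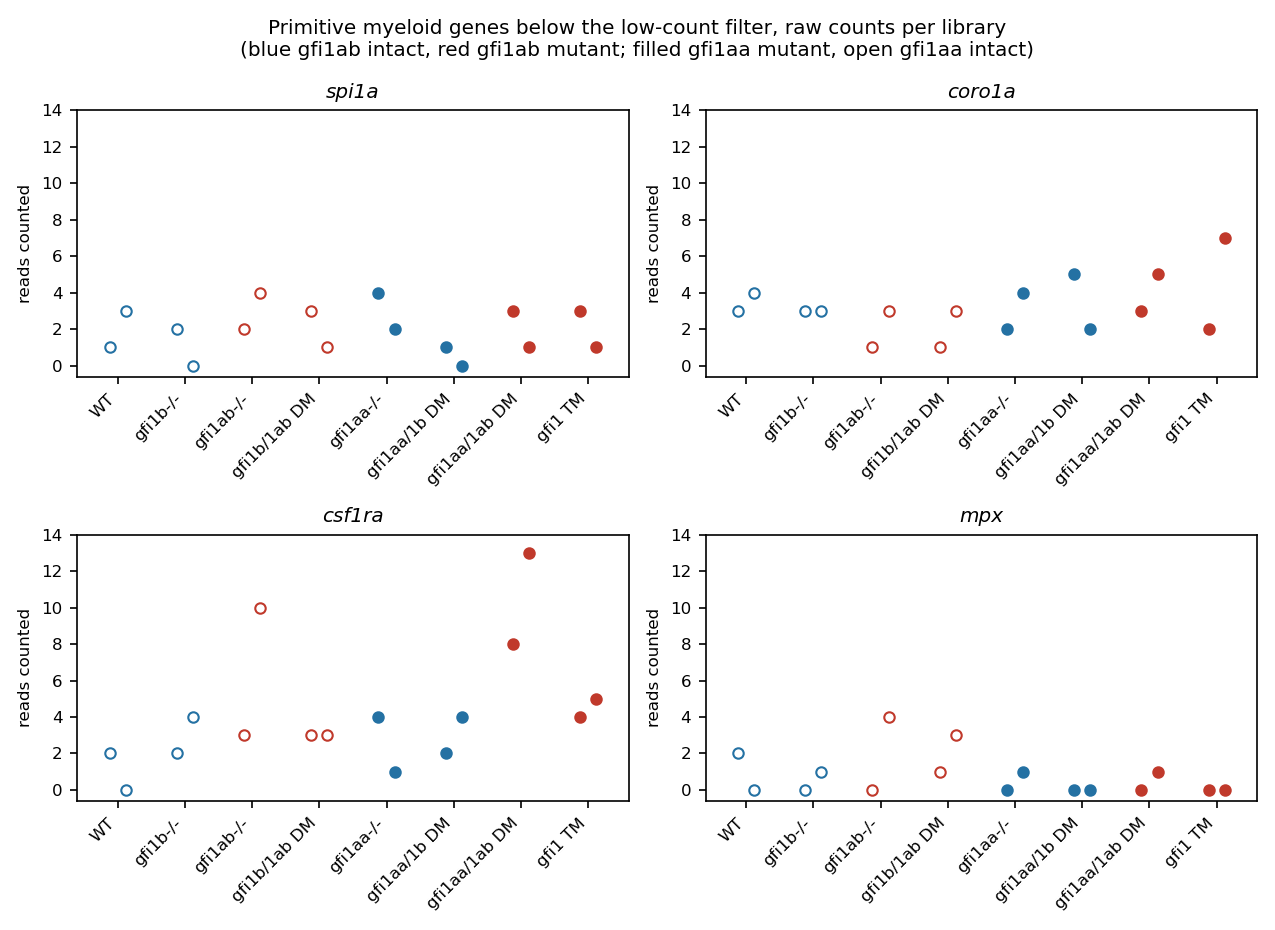
Reads counted (vertical axes, raw counts) for spi1a, coro1a, csf1ra and mpx by genotype (horizontal axes), with 1 point per library, red for gfi1ab mutants and filled for gfi1aa mutants. No library exceeds 13 reads, and the csf1ra points of gfi1aa/1ab DM lie at 8 and 13.

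coro1a (ENSDARG00000054610), whose product Coronin 1A binds actin in leukocytes, had 1 to 7 reads per library and 51 in all. The counts were 3 and 4 in WT, 3 and 3 in gfi1b-/-, 1 and 3 in gfi1b/1ab DM, 1 and 3 in gfi1ab-/-, 2 and 4 in gfi1aa-/-, 2 and 7 in gfi1 TM, 5 and 2 in gfi1aa/1b DM, and 3 and 5 in gfi1aa/1ab DM. The gfi1aa mutants held 30 reads and the others 21, a ratio per depth of 1.51 with an interval of 0.838 to 2.78, which takes in both no change and the 1.58-fold ratio (interval 1.53 to 1.62) of lcp1. These intervals cover counting error only and leave out the spread between libraries, which was wide for lcp1. For coro1a, 0 of 19 comparisons passed in edgeR without the filter, and 0 had an unadjusted p under 0.05.

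csf1ra (ENSDARG00000102986) encodes the Csf1 receptor, which macrophages need and which in zebrafish also serves yellow pigment cells of the neural crest. It had 2 and 0 reads in WT, 2 and 4 in gfi1b-/-, 4 and 1 in gfi1aa-/-, and 2 and 4 in gfi1aa/1b DM. With gfi1ab lost it had 4 and 5 reads in gfi1 TM, 8 and 13 in gfi1aa/1ab DM, 3 and 10 in gfi1ab-/-, and 3 and 3 in gfi1b/1ab DM. The gfi1aa/1ab DM libraries stood highest in CPM, above both libraries of the next genotype. The share of all genes with a genotype apart in this way was not counted. The reads summed to 49 in the gfi1ab mutants and 19 in the others, a ratio per depth of 2.66 with a 95% interval of 1.54 to 4.78 for counting error, and the edgeR test without the filter gave an adjusted p of 0.076, where 18.6% of genes were called. Against WT, gfi1aa/1ab DM had 21 reads to 2, a ratio of 12.5 with an interval of 3.06 to 110, and passed in edgeR without the filter (adjusted p = 0.014, 148 degrees of freedom, where 17.8% of genes were called). These genotypes have the highest and the lowest mean CPM of the 8, and the ratio and its interval make no allowance for that. That was the only csf1ra call in 19 comparisons, 5 of which had an unadjusted p under 0.05, and it was lost without WT replicate 2 (adjusted p = 0.21) or gfi1aa/1ab DM replicate 2 (adjusted p = 0.12).

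mpx (ENSDARG00000019521), the gene of the granule enzyme myeloperoxidase that marks neutrophils, had 13 reads in all and 0 in 9 of 16 libraries. The counts were 2 and 0 in WT, 0 and 1 in gfi1b-/-, 1 and 3 in gfi1b/1ab DM, 0 and 4 in gfi1ab-/-, 0 and 1 in gfi1aa-/-, 0 and 0 in gfi1 TM, 0 and 0 in gfi1aa/1b DM, and 0 and 1 in gfi1aa/1ab DM. A count of 0 allows up to 3 reads in a library. The gfi1aa mutants held 2 reads and the others 11, a ratio per depth of 0.193 with an interval of 0.0208 to 0.883 that covers counting error only. In edgeR without the filter 0 of 19 comparisons passed for mpx, and 0 had an unadjusted p under 0.05.

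Some other genes of differentiated leukocytes were as low as these 4 and others were not. Among 11 other macrophage genes 5 could be tested, and mpeg1.1 had 1 read in all, mfap4 9, havcr1 5, csf1rb 15, cxcr3.2 23 and marco 0. The whole macrophage list summed to 87.2 to 390 CPM, and the cathepsin gene ctss2.1 alone was at 73.4 to 370 CPM. Among 12 rows of other granulocyte genes 6 could be tested, and the lysozyme gene lyz had 3 reads in all, cpa5 1, srgn 18, alox5ap 25 and lect2l 96, with sums of 14.2 to 20.3 CPM over the list. Of 14 pan-leukocyte genes 8 could be tested, and the CD45 gene ptprc had 25 reads in all, lcp2a 19, laptm5 45, tyrobp 96, fcer1g 1 and plek 0, with sums of 113 to 147 CPM over the list. The macrophage marker mpeg1.1 and the neutrophil markers lyz and mpx were thus at or near 0, while spi1b, cebpa, cebpb and lcp1 had 38 reads or more in each library.

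With loss of gfi1aa, 1 of 5 macrophage genes, 0 of 6 granulocyte genes and 1 of 8 pan-leukocyte genes were higher and 0 were lower, beside 14.6% of all tested genes called. The macrophage gene was mrc1a, a mannose receptor that zebrafish veins and lymphatics also express, at 1.65 to 11.7 CPM in the gfi1aa mutants and 0.0584 to 1.99 CPM in the others, with a log2 fold change of 3.58 (SE 0.28, adjusted p = 1.32e-06). Loss of gfi1aa was called for mrc1a against WT, in gfi1b-/- and in gfi1ab-/-, but not in gfi1b/1ab DM (1.96% of all tested genes called). With gfi1aa intact, mrc1a was also called higher in gfi1b/1ab DM against WT (10.6% called) and against gfi1b-/- (3.65% called). The pan-leukocyte gene was arhgdig (0.15, SE 0.04, adjusted p = 0.036). Endothelial markers, a list the study chose on these samples and so no independent evidence of its direction, moved the same way, with 6 of 6 higher and sums of 164 to 215 CPM against 110 to 126 CPM, and their part in the mrc1a and lcp1 values was not tested. The median log2 fold change was 0.39 for the macrophage, 0.21 for the granulocyte and 0.03 for the pan-leukocyte genes. Against WT, the granulocyte gene mmp9 was called higher in every mutant but gfi1b-/-, beside 9.69% to 22.9% of all tested genes called. Among these are gfi1ab-/- and gfi1b/1ab DM, where gfi1aa is intact. On loss of gfi1aa in a mutant background mmp9 was not called. Its interaction of gfi1aa and gfi1ab was called and negative (8.6% of all tested genes called).

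With loss of gfi1b, 1 of 5 macrophage, 2 of 6 granulocyte and 0 of 8 pan-leukocyte genes passed, beside 9.74% of all tested genes, and with loss of gfi1ab 1 of 5, 2 of 6 and 2 of 8, beside 23.9%. With loss of gfi1b, ctss2.1 fell from 258 ± 78 CPM to 128 ± 36 CPM (SD, n = 8 each, log2 fold change -0.99, SE 0.14, adjusted p = 0.00045). Among granulocyte genes, ncf1 of the NADPH oxidase was lower (-0.99, SE 0.28, adjusted p = 0.037) and nccrp1 higher (0.34, SE 0.10, adjusted p = 0.040). With loss of gfi1ab, the amino acid transporter gene slc7a7 (0.34, SE 0.11, adjusted p = 0.037), ncf1 (0.90, SE 0.28, adjusted p = 0.031) and arhgdig (0.17, SE 0.04, adjusted p = 0.010) were higher. The collagenase gene mmp13a (-1.10, SE 0.22, adjusted p = 0.0028) and the NADPH oxidase gene cybb (-0.58, SE 0.19, adjusted p = 0.042) were lower. Against WT, cybb was called lower in every mutant but gfi1aa-/-, and so also in gfi1b-/- and gfi1aa/1b DM, where gfi1ab is intact. It was not called on loss of gfi1ab in gfi1b-/-, gfi1aa-/- or gfi1aa/1b DM. The symbol mmp13a belongs to 2 rows, and the row ENSDARG00000114451 was the one tested. The medians of the 3 lists were -0.07, 0.07 and -0.04 with loss of gfi1b, and 0.34, 0.14 and 0.14 with loss of gfi1ab.

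**Figure D4:**
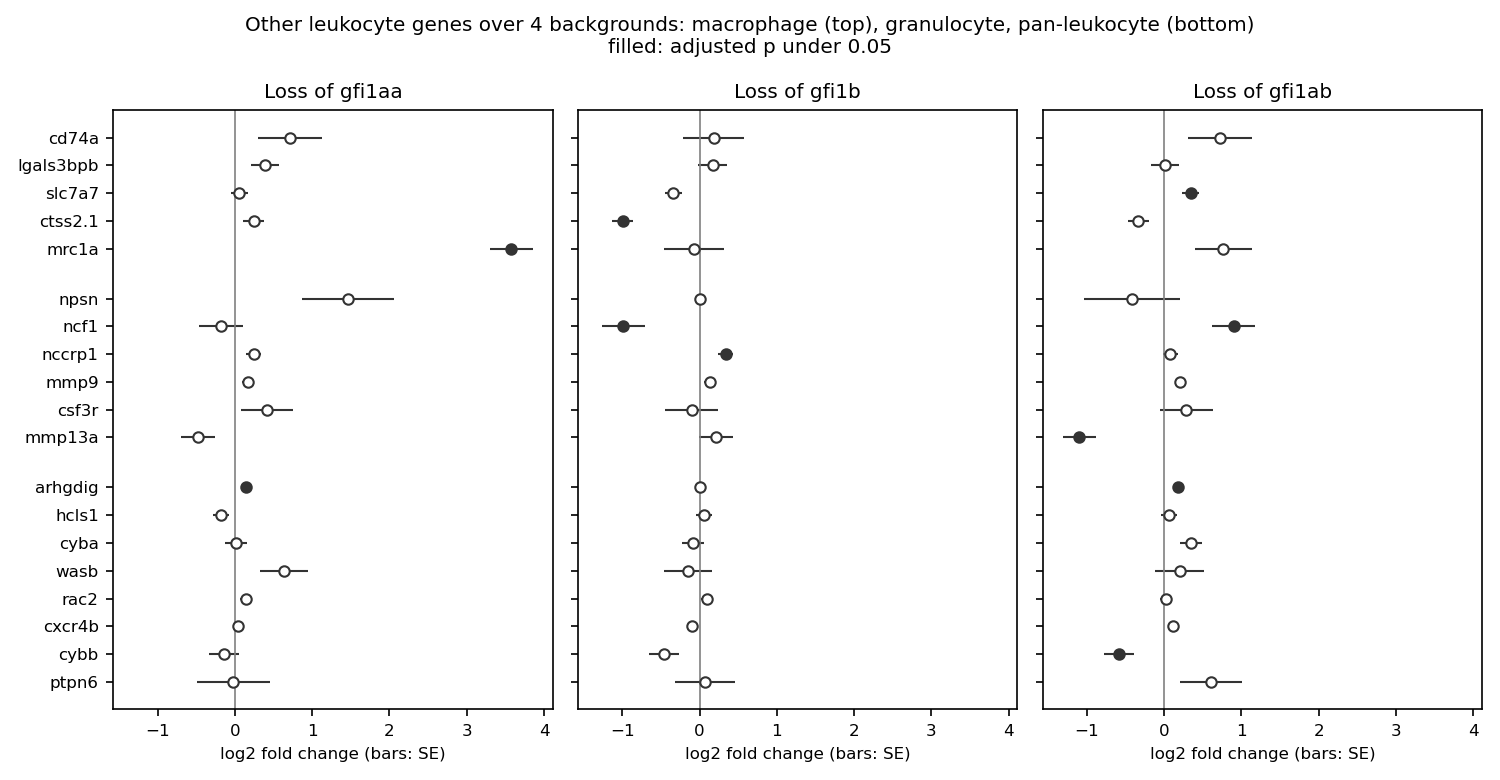
Log2 fold change (horizontal axes, bars are 1 SE) over 4 backgrounds of the 19 tested macrophage, granulocyte and pan-leukocyte genes on loss of gfi1aa, gfi1b and gfi1ab, with filled points for an adjusted p under 0.05. The mrc1a point at 3.58 is the farthest from 0.

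Of 4 tested genes for Csf and interleukin 34 ligands of myeloid receptors, 0 passed on loss of any of the 3 gfi1 genes averaged over 4 backgrounds. The same held for 3 other C/EBP genes. Of all tested genes, 14.6%, 9.74% and 23.9% passed on these averaged losses of gfi1aa, gfi1b and gfi1ab. In single backgrounds, loss of gfi1aa in gfi1ab-/- called csf1a and cebpg higher (14.1% of all tested genes called). The gene cebpg was also called lower in gfi1aa/1b DM against WT (9.69% called). Among other genes of the interferon regulatory factor family, irf1a (0.72, SE 0.22, adjusted p = 0.037) and irf5 (0.28, SE 0.09, adjusted p = 0.046) were higher with loss of gfi1aa. With loss of gfi1ab, irf2a was higher (0.17, SE 0.05, adjusted p = 0.034). Of 9 other plastin and coronin genes 1 passed on an averaged loss, coro1cb, higher with loss of gfi1ab (0.10, SE 0.03, adjusted p = 0.026). The plastin gene pls3 was called higher against WT in gfi1aa-/- (12.1% of all tested genes called), gfi1b-/- (9.46%) and gfi1aa/1ab DM (22.9%). Its interaction of gfi1aa and gfi1b was called and negative (4.02% called), while that of lcp1 was positive. In gfi1 TM against WT, coro1ca was called lower (13.1% called).

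Among 11 factors of anterior mesoderm and blood progenitors, 4 were higher (etv2, fli1a, fli1b and tal1) and 3 lower (drl, myb and runx1) with loss of gfi1aa, beside 14.6% of all tested genes called. With loss of gfi1ab 2 were higher (etv2 and fli1a) and 2 lower (gata2a and runx1), beside 23.9%. With loss of gfi1b 0 passed, beside 9.74%. The progenitor factor gene runx1 was at 3.83 ± 0.91 CPM with loss of gfi1ab and at 5.30 ± 0.61 CPM in the others (SD, n = 8 each, log2 fold change -0.49, SE 0.10, adjusted p = 0.0038), and loss of gfi1aa gave -0.38 (SE 0.10, adjusted p = 0.024). Like spi1b, runx1 was thus lower on both losses, with values of -0.49 against -1.17 and -0.38 against -0.52. Of 7 erythroid markers 7 were lower with loss of gfi1aa, but the study had shown this list as decreased in these samples, so it is no independent evidence of its direction. With loss of gfi1ab alas2, hbae3 and hbbe3 were higher. With loss of gfi1ab 4 of 6 endothelial genes were higher and 2 of 7 genes of the yolk syncytial layer (apoa2 and rbp4), and with loss of gfi1aa rbp4 and the epidermis gene epcam were lower. These are averages over 4 backgrounds. Loss of gfi1ab against WT called 0 endothelial and 0 erythroid genes (10.3% of all tested genes called). In gfi1b-/- it called 0 and 1 higher (3.65%), in gfi1aa-/- 2 and 3 (23.6%), and in gfi1aa/1b DM 3 and 0 (4.87%). With loss of gfi1b epcam was higher, and 0 of 12 muscle genes passed in edgeR with loss of gfi1aa or gfi1b averaged over 4 backgrounds. Against WT, however, 4 muscle genes were lower in gfi1aa-/- (12.1% of all tested genes called) and 3 in gfi1aa/1b DM (9.69% called). In gfi1aa/1ab DM 1 was higher (22.9% called), and in gfi1 TM 0 passed. The interaction of gfi1aa and gfi1ab was positive for 4 muscle genes (8.6% called), and their part in the spi1b and cebpb interactions was not tested.

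The genes whose levels followed each member most closely over the 16 libraries were found by Pearson's r of log2 CPM among 16618 or 16619 named genes with a mean of 20 reads or more. They are a description, since the libraries share their genotypes. For spi1b they were si:dkey-117m1.4 (r = 0.96), kdm5ba (0.94) and acin1a (0.93), for irf8 trpm7 (0.91), ssh2b (0.91) and prr12b (0.90), and for cebpa fetub (0.98), CABZ01073265.1 (0.94) and lrrc58a (0.92). For cebpb they were pgm1 (0.92), ndrg2 (0.92) and dysf (0.91), and for lcp1 fahd2a (0.84), zdhhc9 (0.82) and CU469568.1 (0.82). Among the tested members, r of lcp1 was -0.34 with spi1b, -0.27 with irf8, 0.23 with cebpa and 0.34 with cebpb. Between spi1b and irf8 it was 0.82.

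All 9 genes matched the RefSeq table of the GRCz12tu assembly, and 0 lie on the chromosome of gfi1aa, gfi1b or gfi1ab, while spi1b and cebpa share a chromosome. The files use GRCz11, and positions are therefore not given. Of the 20 nearest tested genes around spi1b, 3 were higher and 2 lower with loss of gfi1ab, where 24.6% of 15721 matched genes were called. Around irf8, 8 of 20 were higher and 0 lower with loss of gfi1ab. Of 13 neighbours of lcp1, 3 were higher and 0 lower with loss of gfi1aa, where 15.2% of matched genes were called.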

How the data were processed

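Per the labels, RNA of whole embryos was extracted with TRIzol and made into libraries with the NEBNext Ultra kit, and the authors mapped reads to GRCz11 with STAR. The authors deposited raw read counts per Ensembl gene for each library. The column of both strands was used, since 49.9% to 50.2% of stranded reads fell on the first strand. Overlapping and antisense genes therefore cannot be told apart, and 2.56% to 2.84% of reads were ambiguous and 3.52% to 5.57% mapped to several places. With reads outside genes or unmapped they formed 4 lines that were left out (77.3% to 80.4% of reads were on genes). Of a table of all libraries only gene symbols were used, and its 16 columns of values were not.

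The main analysis used edgeR (4.0.16, R 4.3.3) with TMM normalization (factors 0.956 to 1.03), filterByExpr (19903 of 28451 genes with a count) and a quasi-likelihood fit of 1 mean per genotype to all 16 libraries. Within each comparison, Benjamini-Hochberg adjustment covered all tested genes. CPM used TMM library sizes, log2 CPM for likeness a prior count of 2, and a standard error is the log2 fold change over the root of F. Intervals of fold changes are unadjusted 95% intervals. The 4 low genes were read from the fit without the filter. There the tests of spi1a, coro1a and csf1ra had 148 degrees of freedom and those of mpx 146. Tests of the 5 genes that passed the filter had 14.7. The part of this difference in the calls made without the filter was not tested. Ratios of summed reads have exact Clopper-Pearson intervals, which cover counting error only. DESeq2 (1.42.0), other scalings, the replicate number as a block, leaving out each library, and further fits were alternatives.

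There were 15 comparisons, and 4 were added after seeing the data (loss of gfi1ab within 3 mutant backgrounds, and the interaction of gfi1b and gfi1ab). The genes named are the 9 members, genes of the 13 other lists that passed on an averaged loss, gata1a, and the 3 genes most like each tested member. Not every such gene of the lists is reported here. Genes of the lists with few reads, mmp9 and runx1 were singled out after their values were seen. The members and lists were chosen with earlier results of these data known.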

Additional observations from a re-analysis of the deposited data

Results flagged for a closer look

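For 3 results, the change with loss of gfi1aa differed by the state of another gfi1 gene in a test of the difference itself. They are from 15 interaction tests of the 5 tested genes, those of gfi1b with gfi1ab included, with p-values adjusted over all genes. Of all tested genes, 4.02% were called for gfi1aa with gfi1b and 8.6% for gfi1aa with gfi1ab. The lcp1 and spi1b calls were lost in some fits without 1 library, as given above. The genotypes compared also differed in their parents, as given in the opening. The interaction of gfi1aa and gfi1b for lcp1 was 1.30 on the log2 scale (adjusted p = 0.025), with changes of 0.13 and -0.01 where gfi1b was intact and 1.71 and 1.02 where it was lost. The interaction of gfi1aa and gfi1ab for spi1b was -0.77 (adjusted p = 0.026), with changes of -0.07 and -0.19 where gfi1ab was intact and -0.88 and -0.93 where it was lost. The interaction of gfi1aa and gfi1ab for cebpb was -0.53 (adjusted p = 0.013), with changes of 0.53 and 0.39 where gfi1ab was intact and -0.02 and -0.11 where it was lost. No library stood apart in a group of 8 by Dixon's test, in 10 groups examined. Each such group mixes 4 genotypes of 2 libraries, so the test does not compare the 2 libraries of a genotype, which differed most in gfi1 TM.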

How the results depend on the processing

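No value of a called gene changed sign under any alternative. The counts that follow are of all members that passed the filter in the fit at hand, which were 5 or 6 without 1 library, csf1ra being the added one, and all 9 without the filter. Without 1 library, the number of members called ranged over 2 to 3 for loss of gfi1aa, 1 to 2 for gfi1b and 2 to 3 for gfi1ab. Against WT it was 0 to 1 for gfi1aa-/-, gfi1b-/-, gfi1ab-/-, gfi1aa/1b DM and gfi1b/1ab DM, 1 to 2 for gfi1aa/1ab DM and 1 to 3 for gfi1 TM. Within backgrounds it was 0 to 2 for gfi1 TM against gfi1b/1ab DM, gfi1aa/1ab DM against gfi1ab-/-, and gfi1b/1ab DM and gfi1aa/1b DM each against gfi1b-/-, 1 to 5 for gfi1aa/1ab DM against gfi1aa-/- and 1 to 3 for gfi1 TM against gfi1aa/1b DM. It was 0 to 1 for the interaction of gfi1aa and gfi1b, 1 to 3 for gfi1aa and gfi1ab and 0 to 1 for gfi1b and gfi1ab.

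The 2-sided model called 0 members for loss of gfi1aa (3 with genotype means) and 0 for gfi1b (1), and DESeq2 called 0 for gfi1b-/- and gfi1aa/1b DM against WT (1 each). Of 20728 genes, DESeq2 called 715 higher and 721 lower for gfi1b-/-, and 791 and 667 for gfi1aa/1b DM. Without the low-count filter the counts were 3 for loss of gfi1ab (2 with the filter, lcp1 added) and 2 for loss of gfi1b, gfi1b-/- and gfi1ab-/- against WT, gfi1aa/1b DM and gfi1b/1ab DM against gfi1b-/-, gfi1 TM against gfi1b/1ab DM, gfi1aa/1ab DM against gfi1ab-/- and the interaction of gfi1b and gfi1ab. They were 3 for gfi1aa/1ab DM and gfi1 TM against WT, 4 for the interaction of gfi1aa and gfi1ab and 5 for gfi1aa/1ab DM against gfi1aa-/-. Among the 28451 genes of that fit, 2295 were higher and 2838 lower for gfi1aa/1ab DM against gfi1aa-/-, and 1690 and 1862 for gfi1 TM against WT. For the interaction of gfi1aa and gfi1ab 1084 were higher and 1634 lower, and for gfi1aa/1ab DM against WT 17.8% were called. With the compared libraries only, 2 were called for gfi1b-/- and gfi1ab-/- against WT and for gfi1aa/1b DM and gfi1b/1ab DM against gfi1b-/-, 4 for gfi1aa/1ab DM against gfi1aa-/- (3 in the fit of all libraries, cebpa added) and 0 for gfi1 TM against WT, gfi1b/1ab DM and gfi1aa/1b DM. In those fits, 79 genes were higher and 71 lower of 18732 for gfi1 TM against WT. The numbers were 11 and 3 of 18512 against gfi1b/1ab DM and 29 and 18 of 18317 against gfi1aa/1b DM. For gfi1aa/1ab DM against gfi1aa-/- they were 2439 and 2649 of 18517. For gfi1b-/- and gfi1ab-/- against WT they were 1133 and 1272, and 720 and 665. Against gfi1b-/- they were 1784 and 1482 for gfi1aa/1b DM, and 799 and 610 for gfi1b/1ab DM. The cause of the changed counts was not tested.

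Same-numbered replicates did not deviate together (correlations over 28 pairs of genotypes -0.091 to 0.092), so the numbers do not pair the libraries. With the replicate block, 0 genes were called for gfi1b-/- against WT (cebpb lost, adjusted p = 0.054) and 2 rather than 3 for gfi1aa/1ab DM against gfi1aa-/- (irf8 lost, adjusted p = 0.057), and 3, 1 and 2 for the averaged losses of gfi1aa, gfi1b and gfi1ab as without it. Over all genes, loss of gfi1aa called 2896 (269 in the 2-sided model), loss of gfi1b 1939 (126) and loss of gfi1ab 4761 (1048). Among fits without 1 library, the number was lowest without gfi1aa-/- replicate 2 for gfi1aa, gfi1b-/- replicate 1 for gfi1b and gfi1aa-/- replicate 1 for gfi1ab. It was highest without gfi1 TM replicate 2 for each of the 3 losses. That library had the smallest share of reads on genes (77.3%) and the largest share mapped to several places (5.57%), and its part in the results was not tested. Scaling by library totals split the gfi1ab calls into 1843 higher and 3139 lower, against 2527 and 2234. The 4 low genes are limited by depth, and differences in them were not detectable unless large.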
